A study of Mus musculus with 7 samples.

Results

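The cytosolic ribosome is built from about a single copy of each of its proteins, and the genes for these proteins were followed here in the livers of mice on caloric restriction (CR) and of mice fed ad libitum (AL). Members were the protein-coding rows of the expression table whose symbol is Rpl or Rps with a number and at most a short suffix, together with Rpsa, Rplp0, Rplp1 and Rplp2, so that the S6 kinases, which share the letters Rps6, are left out. The rule used names only and gave 83 genes among 54532 rows, of which 22046 are protein-coding. 32 of them belong to the small and 51 to the large subunit. Livers were taken from 7 C57BL/6 males aged 30 weeks. The 4 CR mice had been restricted from 12 weeks of age, in weekly steps up to 30%, were housed singly and were given 1 meal a day shortly after lights off, whereas the 3 AL mice had free access to food in shared cages, so that diet cannot be told apart from housing and from the hours since feeding. Poly(A) RNA was sequenced in pairs, with 1 library for each mouse.

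The values are FPKM, that is, fragments divided by gene length in kilobases and by a depth divisor of each library, which was inferred from the values. Reads in genes ran from 15641740 to 19900806 per library. The divisor was 0.989 (CR replicate 3) to 1.05 (AL replicate 2) times these reads, so it is not their plain total. A gene was tested if 3 or more of the 7 libraries reached 0.5 FPKM, which held for 12699 genes and for 80 of the 83 members. The test was limma on log2(FPKM + 0.1), with p values adjusted by Benjamini-Hochberg over the 12699 genes, and a gene was called at an adjusted p under 0.05. Fold changes are log2 CR over AL on that scale, where the added 0.1 makes those of low genes smaller. Libraries did not lie evenly within the groups. By chi-square per gene on the recovered reads, CR replicates 1 and 2 (16.8) and CR replicates 3 and 4 (29.6) formed closer pairs than the other CR libraries (39.4 to 65.2), and AL replicate 3 lay 93.0 and 114 away from AL replicates 2 and 1, which were 15.6 apart.

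Ribosomal proteins are made in equal numbers and are joined to ribosomal RNA in the nucleolus by many assembly factors, after which both subunits are exported to the cytoplasm. In vertebrates their mRNAs carry a 5′ terminal oligopyrimidine (TOP) tract, a C at the first base followed by a run of pyrimidines, through which their translation depends on the kinase complex mTORC1 and on the cap-binding protein LARP1. The TOP tract acts on translation and on the stability of the stored mRNA. The liver secretes most plasma proteins and devotes much of its RNA and protein to ribosomes, and food intake is known to change how strongly TOP mRNAs are translated there. RNA-seq measures the mRNA level and not its translation.

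The start regions of 63 of the 83 members could be matched to RefSeq (build GRCm38.p6). They are shown for members that the comparison called and for members with a long tract that it did not call, as 30 bases, 15 before the annotated first base and 15 from it on. Capitals mark a run of at least 5 pyrimidines that opens with a C within 5 bases of that start.
Rps6, chr4:86857353-86857382, minus strand: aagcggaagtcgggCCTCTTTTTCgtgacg
Rpl12, chr2:32961697-32961726, plus strand: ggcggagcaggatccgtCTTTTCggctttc
Rps24, chr14:24490663-24490692, plus strand: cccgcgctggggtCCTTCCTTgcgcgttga
Rpl13a, chr7:45128731-45128760, minus strand: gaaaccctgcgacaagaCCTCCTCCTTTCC
Rpl15, chr14:18270972-18271001, minus strand: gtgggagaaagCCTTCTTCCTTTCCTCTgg
Rpl27a, chr7:109519180-109519209, plus strand: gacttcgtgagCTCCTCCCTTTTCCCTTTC
Rpl36a, chrX:134585639-134585668, plus strand: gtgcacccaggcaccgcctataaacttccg
Rps7, chr12:28635939-28635968, minus strand: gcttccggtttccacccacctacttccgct
Rpsa, chr9:120127751-120127780, plus strand: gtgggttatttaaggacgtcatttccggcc
Rpl7l1, chr17:46782642-46782671, minus strand: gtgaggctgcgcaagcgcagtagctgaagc

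The runs of Rpl13a and Rpl27a go on past the shown bases, to 14 and 20 pyrimidines. Rps6, Rpl12 and Rps24 rose in CR and carry such a run. Rpl36a, Rps7 and Rpsa also rose and have none within 5 bases of the annotated start, and Rpl15 and Rpl27a have long runs and did not pass the test. Of the 63 matched members, 29 (46%) have such a run, against 18.3% of all 32851 RefSeq start windows, and 21 (33.3%) have a run of 8 or more, against 4.37% of all windows. Where a member has several annotated starts, the start with the longest run was taken, also for the first base given next. The shares of all windows count single windows, so such members had more chances of a run. The annotated first base is a C in 33.3% of the members and in 16.3% of all windows. Annotated starts can lie some bases away from the starts used in liver, so a missing run says only that it is not in these letters.

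In 71 of the 80 tested members the log2 fold change was above 0, which it was in 49.8% of all genes tested. The test called 15 members higher in CR (18.8%) and 2 lower (2.5%), where it called 11.3% of all genes higher and 10.2% lower, and 63 members did not pass. The share called higher is thus 7.45 percentage points above that of all genes. Every CR library lay above every AL library in 35 of the 80 members (43.8%), against 17.6% of all genes. Every CR library lay below every AL library in 2 members, against 16.8% of all genes. The median log2 fold change of the members was 0.27 with quartiles of 0.14 and 0.41, and that of all genes was -0.002. The small subunit had 7 members called higher and 0 lower of 32, with a median of 0.28, and the large subunit 8 higher and 2 lower of 48, with a median of 0.27. The count of calls rests on few libraries. It was 7 higher and 1 lower without CR replicate 2, 8 and 1 without CR replicate 3, 4 and 0 without AL replicate 1, and 2 and 0 without AL replicate 2. It was 10 and 1 without CR replicate 1, 12 and 2 without CR replicate 4, and 14 and 2 without AL replicate 3. The calls over all genes, 2724 in the full fit, fell as well. They were 1756 without CR replicate 2, 1952 without CR replicate 3, 1381 without AL replicate 1 and 1209 without AL replicate 2. They were 1878 without CR replicate 1, 2089 without CR replicate 4 and 2663 without AL replicate 3. The median of the members stayed between 0.18 and 0.37 in the 7 fits that left out 1 library. Rpl17 and Rpl36a were called in each of the 7. For the small subunit, 0 members were lower also at an unadjusted p under 0.05 and with limma-voom.

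**Figure D1:**
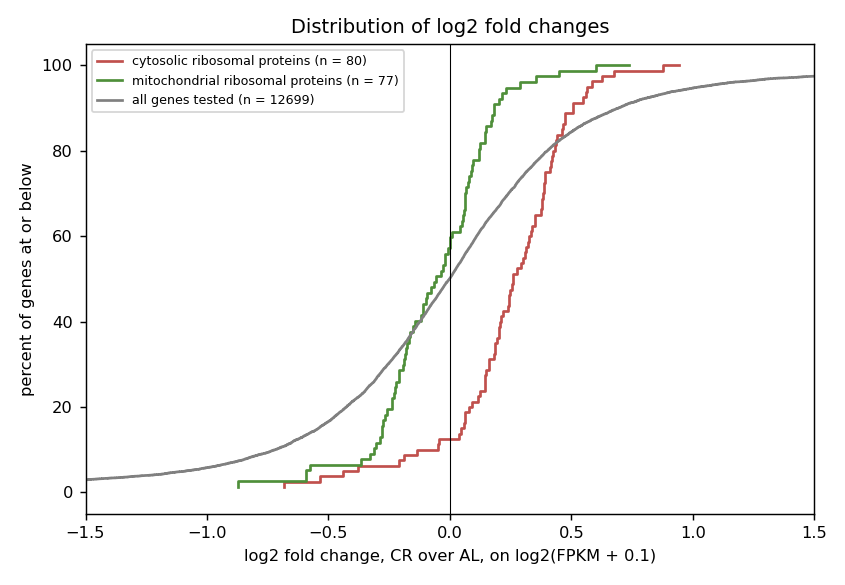
Cumulative share of genes (vertical axis, percent) at or below a log2 fold change of CR over AL (horizontal axis) for 80 cytosolic ribosomal proteins, 77 mitochondrial ribosomal proteins and all 12699 genes tested. The curve of the cytosolic set lies to the right of 0 for all but 9 of its members, with a median of 0.27, while the mitochondrial set crosses 50% near 0 with a median of -0.04.

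The mitochondrial ribosome, which translates the few proteins encoded in mitochondrial DNA, has its own nuclear-encoded proteins. Of 77 tested genes of this set, 3 were called higher (3.9%) and 2 lower (2.6%) in CR, against 11.3% and 10.2% of all genes, and their median was -0.04. Their summed level was 838, 839, 1040 and 994 FPKM in CR livers, against 1002, 955 and 961 FPKM in AL livers, and the groups overlap. The difference between the cytosolic and the mitochondrial set was not tested.

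Summed over the 83 members, the level was 7943, 8360, 11439 and 9894 FPKM in CR replicates 1 to 4, against 7743, 7535 and 7985 FPKM in AL replicates 1 to 3. CR livers averaged 9409 ± 1592 FPKM (SD, n = 4) and AL livers 7754 ± 225 FPKM (SD, n = 3), a ratio of 1.21. CR replicate 1 lay below AL replicate 3, so that the sums overlap. As a share of all reads in genes, the members held 1.35%, 1.42%, 1.87% and 1.65% in CR livers and 1.29%, 1.29% and 1.30% in AL livers, without overlap. The 3 AL livers lay within 0.0082 percentage points of each other, while the CR livers spread over 0.52 percentage points. The ratio of the summed levels was 1.249 for the small subunit and 1.19 for the large subunit. Without CR replicates 3 and 4 the ratio of the summed levels was 1.05, and without CR replicates 1 and 2 it was 1.38.

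**Figure D2:**
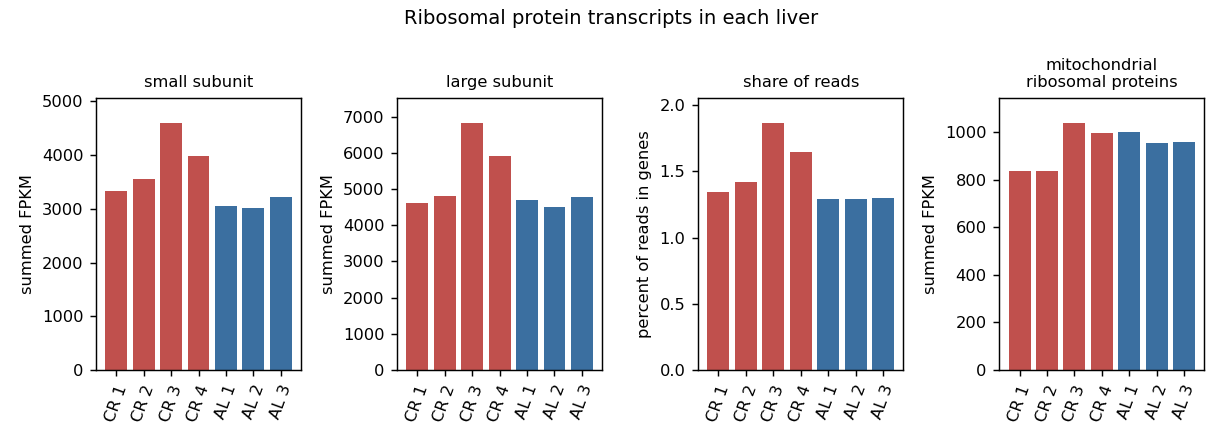
Bars give, for each liver, the summed FPKM of small subunit members, of large subunit members and of mitochondrial ribosomal proteins, and the percent of reads in genes that the cytosolic members held. CR livers are red and AL livers blue. CR replicates 3 and 4 stand highest in both subunits and in the read share (1.87% and 1.65%), and the AL livers are level with each other.

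CR livers thus differed among themselves. Measured from the mean of the AL livers, the median member deviated by 0.03 and 0.10 on the log2 scale in CR replicates 1 and 2 and by 0.58 and 0.36 in CR replicates 3 and 4, whereas the median of all genes deviated by at most 0.03 in any of them. CR replicates 3 and 4 were the pair of highest CR libraries in 58 of 80 members (72.5%) and in 26.6% of all genes tested. Other measures differed along the same pairs. Mitochondrial transcripts held 7.86% and 8.09% of reads in CR replicates 1 and 2 and 5.62% and 6.19% in CR replicates 3 and 4, against 4.85%, 4.200% and 3.92% in AL livers. Across 10851 genes, the deviation from the AL mean went with the GC content of the transcript at Spearman correlations of -0.29 and -0.22 in CR replicates 1 and 2 and of -0.04 and -0.01 in CR replicates 3 and 4, a description over genes that share a library. The part of these measures in the result was not tested. A fit with the GC trend removed called 22 members higher and 2 lower, and 2678 genes in all. It ran over the 10851 genes with a GC content and not over all 12699, so its counts do not come from the same set. Without CR replicates 3 and 4, 8 members were called higher and 4 lower, and the median was 0.09, with 43 members above 0. That fit called 1774 of 12174 genes in either direction. Without CR replicates 1 and 2, 20 members were called higher and 0 lower, with a median of 0.47 and 76 members above 0. Here 1269 of 12162 genes were called. The shares of all genes by direction were not taken in these fits, so the member counts cannot be set against them. Both of these fits and the fit with the GC trend removed were added after the data were seen.

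**Figure D3:**
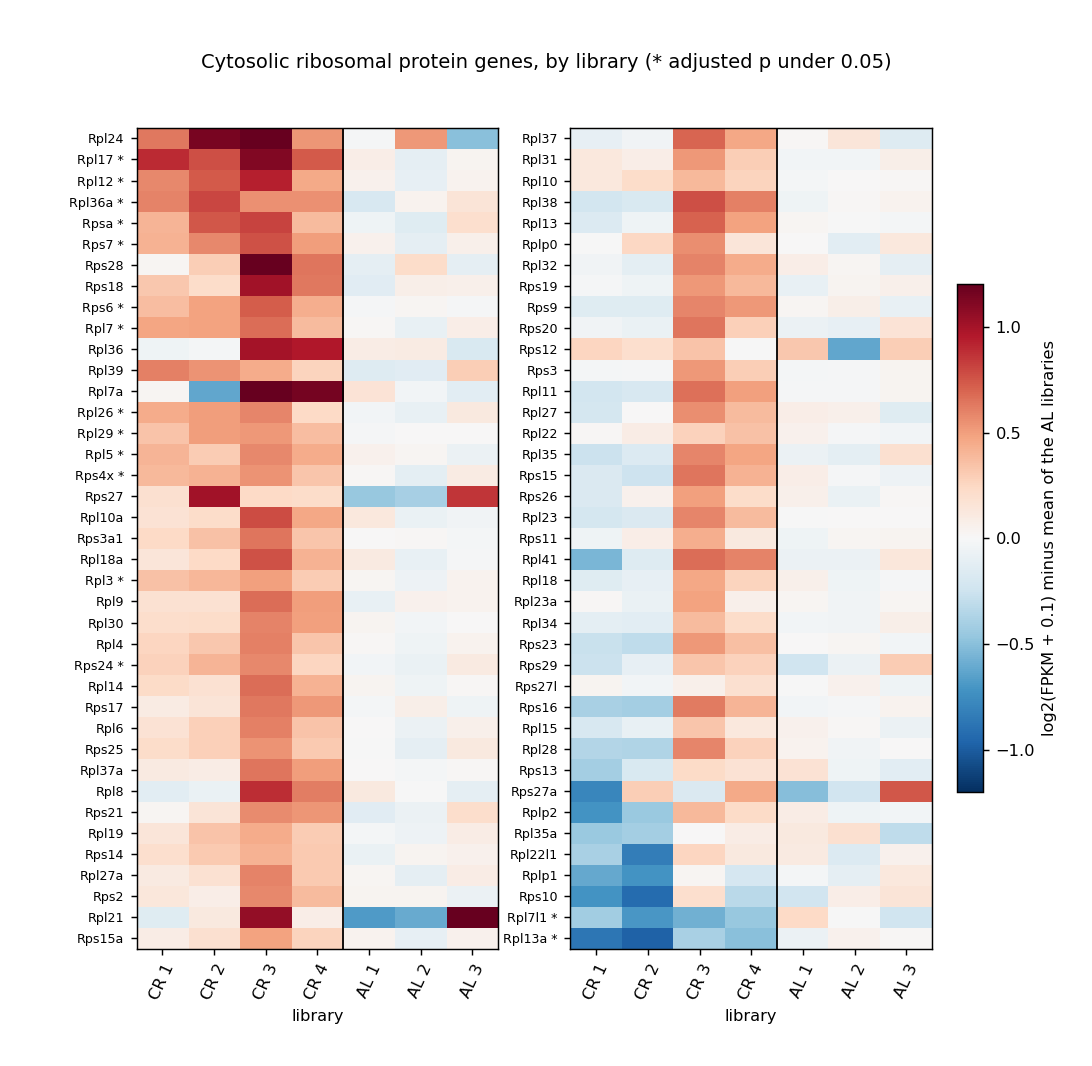
Each of the 78 rows is a tested member and each column a liver, CR left of AL. Colour gives log2(FPKM + 0.1) minus the mean of the AL livers, red for higher and blue for lower, rows run by fold change, and an asterisk marks an adjusted p under 0.05. Columns CR 3 and CR 4 are red in nearly all rows, with medians of 0.58 and 0.36 over all 80 tested members, while columns CR 1 and CR 2 are red in the upper rows and pale or blue in the lower ones.

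In the small subunit, which reads the codons of the mRNA, the 7 members called of 32 rose by 0.38 to 0.59, and the other 25 did not pass. Rps7, a small subunit protein that is mutated in some human patients with Diamond-Blackfan anaemia (chr12:28630854-28635953), had 131, 147, 167 and 139 FPKM in CR livers, against 102, 91.1 and 102 FPKM in AL livers. All CR livers lay above all AL livers, and the log2 fold change was 0.56 ± 0.12 (SE) with an adjusted p of 0.014, and of 0.069 without AL replicate 2. Rps6, the substrate of the S6 kinases downstream of mTORC1 (chr4:86854660-86857412), had 208, 227, 267 and 219 FPKM in CR livers, against 160.2, 164 and 160.5 FPKM in AL livers. Its AL livers were within 3.89 FPKM of each other, and the log2 fold change was 0.51 (adjusted p = 0.020, and 0.071 and 0.072 without AL replicate 1 or 2).

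Rpsa, which is also known as the laminin receptor precursor and holds a place at the mRNA exit, had 176, 223, 233 and 173 FPKM in CR livers, against 128, 119.5 and 152 FPKM in AL livers (log2 fold change 0.59, adjusted p = 0.033). CR replicates 2 and 3 were the highest, as they were in 16 of the 80 members, and the call was lost without CR replicate 2, CR replicate 3, AL replicate 1 or AL replicate 2 (adjusted p of 0.0665 to 0.125). Rps4x, encoded on the X chromosome, and Rps24 also rose, by 0.42 and 0.38, with adjusted p values of 0.029 and 0.049, and were taken up after their values were seen. Among the fits that left out 1 library, Rps24 kept its call only without AL replicate 3 (adjusted p up to 0.16 in the others), and Rps4x only without CR replicate 4 or AL replicate 3 (up to 0.12 in the others).

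Among the small subunit members with the highest FPKM, Rps3a1, which sits near the mRNA exit, had 337, 363, 444 and 360 FPKM in CR livers, against 286, 288 and 281 FPKM in AL livers. The groups do not overlap, yet the adjusted p was 0.055. Rps2, at the mRNA entry, had 283, 272, 384 and 336 FPKM in CR livers, against 264, 263 and 246 FPKM in AL livers (log2 fold change 0.29, adjusted p = 0.18).

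The large subunit holds the peptidyl transferase centre, which is made of RNA, and the tunnel of the nascent chain, and its called members included the highest fold change among all called members. Rpl17, which lies at the exit of the tunnel, had 74.3, 67.9, 86.0 and 66.2 FPKM in CR livers, against 42.0, 36.8 and 40.6 FPKM in AL livers. The lowest CR liver was 1.58 times as high as the highest AL liver, and the log2 fold change was 0.88 ± 0.12 (SE, adjusted p = 0.0030). Rpl12, at the base of the stalk (chr2:32961559-32965345), had 61.1, 68.0, 77.9 and 56.1 FPKM in CR livers, against 42.3, 38.3 and 42.3 FPKM in AL livers (log2 fold change 0.67, adjusted p = 0.011, and 0.054 without AL replicate 2).

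Rpl36a, which lies near the exit site of the tRNA (chrX:134585654-134588062), had 59.2, 68.3, 57.3 and 57.3 FPKM in CR livers, against 34.2, 40.1 and 43.5 FPKM in AL livers. CR replicate 2 stood above the other CR livers, which were within 1.83 FPKM of each other, and the log2 fold change was 0.63 ± 0.12 (SE, adjusted p = 0.011). Rpl7, which binds the large ribosomal RNA, had 141, 142, 161 and 132 FPKM in CR livers, against 102, 95.1 and 107 FPKM in AL livers (log2 fold change 0.50, adjusted p = 0.016, and 0.057 to 0.076 without AL replicate 1 or 2). Rpl29, a small basic protein of the large subunit, had 101, 113, 114 and 103 FPKM in CR livers, against 78.7, 80.0 and 79.8 FPKM in AL livers (log2 fold change 0.43, adjusted p = 0.017), and its call was lost without CR replicate 2, AL replicate 1 or AL replicate 2 (adjusted p of 0.0503 to 0.0688).

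Rpl5 and Rpl11 enter the ribosome together with the 5S RNA and, when free, bind Mdm2, the ubiquitin ligase of p53. Rpl5 had 76.2, 70.8, 85.5 and 77.8 FPKM in CR livers, against 59.2, 58.0 and 54.6 FPKM in AL livers, and rose by 0.43 (adjusted p = 0.022, and 0.061 to 0.076 without AL replicate 1 or 2). Rpl11 had 54.5, 55.5, 100.2 and 89.5 FPKM in CR livers, against 62.7, 62.7 and 65.1 FPKM in AL livers, and did not pass (log2 fold change 0.18, adjusted p = 0.61). CR replicates 1 and 2 lay below all AL livers for Rpl11 and above all of them for Rpl5. The test of the difference between the pair was not made.

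Rpl3, which reaches into the peptidyl transferase centre, had 104, 107, 115 and 100.4 FPKM in CR livers, against 82.7, 77.8 and 83.5 FPKM in AL livers (log2 fold change 0.39, adjusted p = 0.026). Among the fits that left out a library it kept its call only without CR replicate 4 or AL replicate 3, with adjusted p values up to 0.11 in the others. Rpl26, at the tunnel exit and taken up after its value was seen, rose by 0.44 (adjusted p = 0.035) and kept its call in the same 2 fits, with adjusted p values up to 0.13 in the others. Rpl4, whose loop lines the tunnel, had 305, 318, 388 and 321 FPKM in CR livers, against 257, 245 and 262 FPKM in AL livers, without overlap (adjusted p = 0.054). Rpl10, which joins the subunit late in the cytoplasm, had 220.5, 235, 265 and 243 FPKM in CR livers, against 199, 203 and 205 FPKM in AL livers (log2 fold change 0.25, adjusted p = 0.12).

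**Figure D4:**
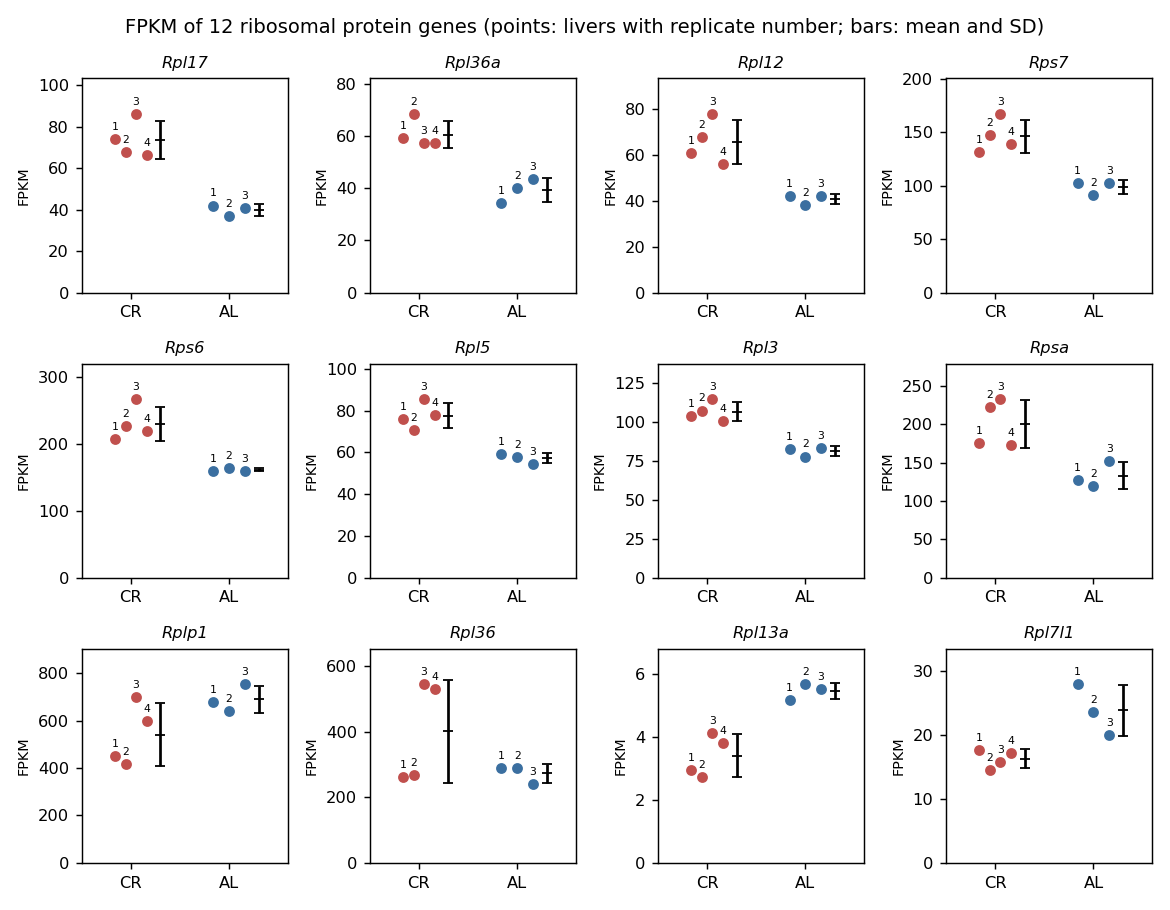
FPKM of 12 members in single livers, with CR (red) left of AL (blue), replicate numbers above the points, and the mean and SD beside them. Each vertical axis starts at 0. The first 8 genes were called higher and show no overlap, Rpl13a and Rpl7l1 were called lower and show none either, and Rplp1 and Rpl36 show CR replicates 3 and 4 far above CR replicates 1 and 2.

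Only 2 members were called lower. Rpl13a, a large subunit protein that in human cells also acts apart from the ribosome as a silencer of mRNA translation, had 2.95, 2.75, 4.14 and 3.83 FPKM in CR livers, against 5.20, 5.68 and 5.52 FPKM in AL livers. All CR livers lay below all AL livers (log2 fold change -0.68, adjusted p = 0.023). The gene (chr7:45125558-45128761) shares 35.4% of its exon length with other annotated genes, and its level is far under the median member, at 88.1 FPKM. Its call was lost without CR replicate 1, AL replicate 1 or AL replicate 2 (adjusted p of 0.055 to 0.085). Rpl7l1, a relative of Rpl7 whose counterpart in yeast, Rlp7, is an assembly factor, had 17.7, 14.5, 15.8 and 17.2 FPKM in CR livers, against 27.9, 23.6 and 20.01 FPKM in AL livers (log2 fold change -0.53, adjusted p = 0.029). Its call was lost without CR replicate 2, CR replicate 3, AL replicate 1 or AL replicate 2 (adjusted p of 0.064 to 0.095).

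The stalk of the large subunit, made of Rplp0 and dimers of Rplp1 and Rplp2, recruits the elongation factors. Rplp1 was the most abundant member per length and had 449, 418, 701 and 598 FPKM in CR livers, against 677, 638 and 753 FPKM in AL livers. CR replicates 1, 2 and 4 were below every AL liver, CR replicate 3 was among the AL livers, and the log2 fold change of -0.38 did not pass (adjusted p = 0.21). Rplp2 had 27.7, 33.4, 59.9 and 53.5 FPKM in CR livers, against 48.5, 43.9 and 44.5 FPKM in AL livers (log2 fold change -0.13, adjusted p = 0.75). CR replicates 1 and 2 were below every AL liver and CR replicates 3 and 4 above. Rplp0 had 288, 343, 425 and 320 FPKM in CR livers, against 289, 264 and 315 FPKM in AL livers (log2 fold change 0.24, adjusted p = 0.30). Without Rplp1 the ratio of the summed levels of CR over AL was 1.255. In the fit without CR replicates 3 and 4, Rplp1, Rplp2 and Rps16 were called lower, and the other call in that direction was Rpl13a.

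Rpl36, the second highest member in FPKM, was split among the CR livers, with 263, 267, 544 and 530.4 FPKM, against 289.7, 290.2 and 239 FPKM in AL livers (log2 fold change 0.47 ± 0.30 SE, adjusted p = 0.30). Its deposited length of 383 bases equals its principal transcript, whereas the medians over the members were 1739 and 886 bases. Ranks by FPKM depend on these lengths. CR replicates 3 and 4 were 1.87 and 1.83 times the highest AL liver, and CR replicates 1 and 2 were among the AL livers. Rpl28 had 67.2, 66.7, 129 and 104 FPKM in CR livers, against 88.5, 83.3 and 86.0 FPKM in AL livers, and its log2 fold change of 0.04 averages values on both sides of AL. Rpl15, with 53.9, 57.9, 77.9 and 67.5 FPKM in CR livers, against 63.9, 62.3 and 58.9 FPKM in AL livers, lay likewise on both sides (log2 fold change 0.05). Rps13 had 26.0, 30.3, 40.5 and 38.8 FPKM in CR livers, against 38.9, 33.2 and 31.6 FPKM in AL livers (log2 fold change -0.05). For these 3 genes CR replicates 1 and 2 lay below the AL range, and CR replicates 3 and 4 above it but for CR replicate 4 of Rps13, which was within it. Their adjusted p values were 0.84 to 0.93.

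Some ribosomal proteins have a paralogue with restricted use. Rpl3l, known from skeletal muscle and heart, had 0.06, 0.04, 0.04 and 0.06 FPKM in CR livers, against 0.07, 0 and 0.08 FPKM in AL livers. Rpl39l and Rpl10l, known from the testis, were at or near 0, Rpl39l with 0 in all CR livers and 0.15, 0 and 0.08 FPKM in AL livers, and Rpl10l with 0 reads in all 7 libraries. These were the 3 members below the level needed for a test. Rpl39, the partner of Rpl39l, had 110.0, 105, 98.5 and 87.0 FPKM in CR livers, against 64.9, 65.9 and 88.6 FPKM in AL livers (log2 fold change 0.46, adjusted p = 0.058), where AL replicate 3 overlaps CR replicate 4. Rpl22l1 had 8.18, 6.02, 12.9 and 11.7 FPKM in CR livers, against 11.6, 9.59 and 11.2 FPKM in AL livers, and Rpl22 had 33.3, 35.0, 40.0 and 42.1 FPKM in CR livers, against 34.2, 32.6 and 32.2 FPKM in AL livers. Neither passed (adjusted p of 0.59 and 0.28). Rps27l, a target of p53, was level, with 143, 137, 147 and 160.4 FPKM in CR livers, against 139, 146 and 136 FPKM in AL livers (log2 fold change 0.06, adjusted p = 0.68).

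Ribosomal protein genes have many processed pseudogenes, and reads from near-identical copies can be split between them by the aligner and the counter. Over the members, a median of 14.5% and at most 73.9% of the 100-base words of their transcripts also occur in other genes, overlapping genes included. At least 20% of the words is shared by 29 members, among them 7 of the 17 called. Exons of 38 members overlap other genes, in 11 by 20% or more of the exon length. Rpl23a, with the highest share of words, has 62.3% of its exon length overlapped. The 433 pseudogenes that share such words held 6.72%, 6.83%, 7.03% and 6.88% of the reads of members and pseudogenes together in CR livers, against 6.80%, 6.54% and 6.72% in AL livers. In some families the copy held more than the member. Rpl17-ps10 had 195, 191, 272 and 221 FPKM in CR livers, against 163, 139.7 and 162 FPKM in AL livers, above Rpl17 itself in every library. With the reads of its 7 near copies added, Rpl17 had a log2 fold change of 0.61 and an adjusted p of 0.014 in place of 0.88 and 0.0030. Rpl12 had 0.62 (adjusted p = 0.015) with its 4 copies.

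Rps10 shows how much of a family can stand outside the member. It had 0.50, 0.42, 1.04 and 0.69 FPKM in CR livers, against 0.74, 0.94 and 0.999 FPKM in AL livers (log2 fold change -0.44, adjusted p = 0.33), whereas its near copy Rps10-ps2 had 102, 121, 173 and 121 FPKM in CR livers, against 91.9, 82.4 and 91.6 FPKM in AL livers. With the reads of the copy added, the log2 fold change of Rps10 was 0.48 (adjusted p = 0.088), of the opposite sign. Rps10 also shares 28.7% of its exon length with the annotated genes Gm15420 and RPS10-NUDT3. Rpl24 had the highest fold change of all members at a low level, with 2.30, 3.32, 4.19 and 2.13 FPKM in CR livers, against 1.43, 2.11 and 0.997 FPKM in AL livers (log2 fold change 0.94 ± 0.31 SE, adjusted p = 0.064). It shares 47.0% of its exon length with the annotated gene Gm28037, and with its near copies added the log2 fold change was 0.41 (adjusted p = 0.31). Which genes such reads were given to cannot be told from the table. With the reads of near copies added for all 63 members that have any, 17 members were called higher and 2 lower, and 2726 genes in all, and the median of the members was 0.27. This fit was added after the data were seen.

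Rps27, a zinc finger protein of the small subunit, had 83.1, 146, 85.5 and 84.7 FPKM in CR livers, against 52.9, 54.9 and 132 FPKM in AL livers, so that CR replicate 2 and AL replicate 3 stood apart (log2 fold change 0.41, adjusted p = 0.44). Its protein-coding copy Rps27rt had 289, 101, 231 and 222 FPKM in CR livers, against 146, 188 and 57.1 FPKM in AL livers, and was lowest in the same libraries. Rps27rt held 55.5%, 19.8%, 49.2% and 48.5% of the reads of both genes in CR livers, against 49.7%, 55.1% and 13.4% in AL livers. With reads scaled to depth as in the FPKM, both genes together had 195, 189.9, 176 and 171 CPM in CR livers, against 109.6, 128 and 159 CPM in AL livers, and the groups did not overlap. With all its near copies added, Rps27 had a log2 fold change of 0.48 and an adjusted p of 0.046. The source of the split in CR replicate 2 and AL replicate 3 was not tested.

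**Figure D5:**
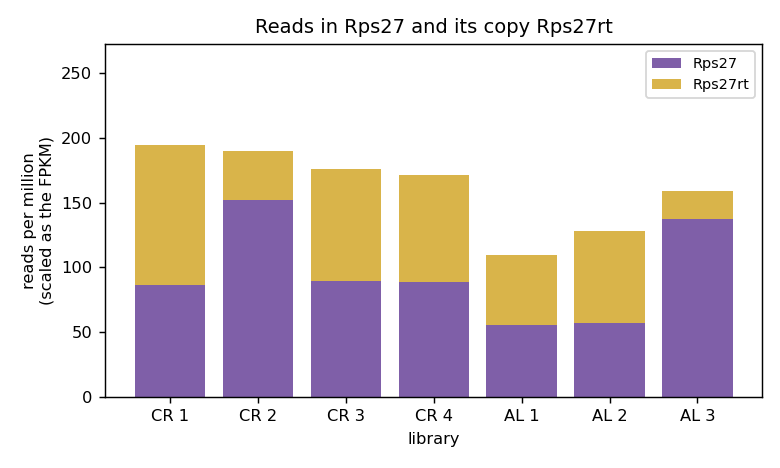
Reads in CPM, scaled as the FPKM, in Rps27 (purple, lower part) and Rps27rt (yellow, upper part) of each liver, CR left of AL. The yellow part is small in CR replicate 2 and AL replicate 3 (19.8% and 13.4%) and near 50% elsewhere, while the whole bars are 171 to 195 in CR livers and 109.6 to 159 in AL livers.

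Rps27a, made as a fusion with ubiquitin, had 20.9, 44.2, 32.0 and 49.4 FPKM in CR livers, against 25.2, 30.7 and 60.3 FPKM in AL livers. The highest liver was 2.36 times the lowest in CR and 2.39 times the lowest in AL (log2 fold change -0.05, adjusted p = 0.93). Of 6 ribosomal protein genes and copies that fall outside the rule by symbol or annotation, Fau, a fusion of a ubiquitin-like domain with Rps30, had 252, 246, 357 and 331 FPKM in CR livers, against 220.5, 201 and 192 FPKM in AL livers (adjusted p = 0.054). Rack1, a scaffold on the small subunit, had 68.5, 77.9, 91.7 and 75.1 FPKM in CR livers, against 63.5, 55.4 and 60.9 FPKM in AL livers (adjusted p = 0.064). Neither passed, although the groups did not overlap. Rpl37rt, annotated as a transcribed processed pseudogene of Rpl37, rose by 0.41 (adjusted p = 0.014, and 0.054 without AL replicate 1), and limma-voom called 0 of the 6. Rpl37 itself had 36.5, 38.0, 63.1 and 53.9 FPKM in CR livers, against 39.5, 43.0 and 34.9 FPKM in AL livers.

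By the TOP run at the annotated start, members with a run had a median of 0.24 over 29 tested genes, with 3 called higher and 1 lower, and those without had a median of 0.26 over 31, with 6 higher and 1 lower. Of all genes tested, 11.3% were called higher and 10.2% lower, which stands beside these counts and those by motif. In the 300 bases around the start, from 250 before to 50 after, CCGGAAG, a core of the motif of ETS factors, was found on either strand in 26 of 63 members (41.3%) and in 8.86% of all RefSeq windows. AAGATGGC, a core of the YY1 motif, was found in 9.52% of members and in 2.75% of windows, and TATAAA, the TATA box, in 11.1% and 13.6%. Of the 25 tested members with CCGGAAG, 4 were called higher and 0 lower. Of the 6 with AAGATGGC, 0 were called higher and 2 lower, Rpl13a and Rpl7l1, the only members called lower. Of the 7 with TATAAA, 1 was called higher and 0 lower. A member counted as matched if any of its windows held the motif, whereas the share of all windows counts single windows. A link between motif and call was not tested. These matches describe the letters only. Over the 80 tested members, the fold change went with the GC content of the transcript at a Spearman correlation of -0.03, with its length at 0.02, and with the share of words found in other genes at 0.20, a description over genes of the same 7 libraries. By library, the deviation of the members from the AL mean went with GC content at -0.20 and -0.18 in CR replicates 1 and 2 and at 0.14 and 0.22 in CR replicates 3 and 4, so that the value near 0 joins libraries of opposite sign.

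Genes of the translation machinery beyond the ribosome are given by lists, beside which 11.3% of all genes were called higher and 10.2% lower. Those shares hold for the adjusted p values. The share of all genes at an unadjusted p under 0.05 was not taken, so the list counts at that level cannot be set against it. With limma-voom, 2867 of 12699 genes were called in either direction. Of 15 tested elongation and release factors, 4 were called higher (26.7%) and 0 lower, with a median of -0.05, and 6 were higher and 0 lower at an unadjusted p under 0.05. Eef1a1, which brings the tRNA to the ribosome and has a TOP mRNA, had 2177, 2229, 2298 and 2076 FPKM in CR livers, against 1553, 1516 and 1426 FPKM in AL livers (log2 fold change 0.55, adjusted p = 0.011). Eef2, the translocase, had 581, 614, 882 and 794 FPKM in CR livers, against 477, 466 and 469 FPKM in AL livers (log2 fold change 0.59, adjusted p = 0.041). The release factor Etf1 rose by 0.43 and the selenocysteine factor Eefsec by 0.51. Eef1a1 lost its call without AL replicate 2 (adjusted p = 0.053), while Eef2 kept it in 1 of 7 such fits, Eefsec in 2 and Etf1 in 3.

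Of 45 initiation factors, 7 were called higher (15.6%, against 11.3% of all genes) and 1 lower, with a median of -0.04, and 14 were higher and 2 lower at an unadjusted p under 0.05. Eif2a rose by 0.56 (adjusted p = 0.0077) and was called in all 7 fits that left out a library, Eif3m rose by 0.45 and Eif3b fell by 0.46, with 23.8, 25.6, 26.8 and 25.1 FPKM in CR livers, against 37.1, 37.3 and 30.5 FPKM in AL livers. Eif3m kept its call in 1 of these fits and Eif3b in 3. Of 25 TOP mRNAs other than those of the members, some of which stand on the lists of factors too, 7 were called higher and 0 lower, with a median of 0.12, and 12 were higher and 0 lower at an unadjusted p under 0.05. Naca, a subunit of the complex that shields the nascent chain, had 28.7, 27.4, 25.9 and 25.6 FPKM in CR livers, against 17.2, 17.4 and 16.1 FPKM in AL livers (log2 fold change 0.67 ± 0.09 SE, adjusted p = 0.0028). Here CR replicates 3 and 4 were not the higher ones.

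Of 15 genes of RNA polymerase I, which transcribes ribosomal RNA, and its factors, 0 were called higher and 3 lower, with a median of -0.07, and the same counts were found at an unadjusted p under 0.05 and with limma-voom. Polr1e, a polymerase subunit, had 0.67, 0.80, 1.02 and 0.88 FPKM in CR livers, against 2.68, 1.69 and 1.12 FPKM in AL livers (log2 fold change -0.96, adjusted p = 0.049). Znrd1 fell by 0.65 and Ttf1, a termination factor, by 0.53. Polr1e kept its call in 1, Znrd1 in 2 and Ttf1 in 0 of the 7 fits that left out a library. Of 56 small subunit assembly factors, 0 were called higher and 3 lower, with a median of -0.17 and 15 above 0, while 2 were higher and 12 lower at an unadjusted p under 0.05 and 0 and 5 with limma-voom. These were Rps19bp1 (log2 fold change -0.52), Nol6 (-0.54) and Nat10 (-0.43), which kept their calls in 2, 0 and 1 of the 7 fits. Of 59 large subunit assembly factors, 2 were called higher and 2 lower, with a median of -0.07, while 4 were higher and 9 lower at an unadjusted p under 0.05 and 2 and 3 with limma-voom. The summed levels of these lists overlapped and fell from AL replicate 1 to AL replicate 3. They were 537, 436 and 381 FPKM for small subunit factors (398 to 425 in CR livers) and 545, 454 and 378 FPKM for large subunit factors (409.5 to 474). For the RNA polymerase I list they were 83.8, 68.3 and 60.5 FPKM (58.8 to 68.7 in CR livers).

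Sbds, which releases the factor eIF6 from the large subunit, had 34.0, 37.3, 37.7 and 39.3 FPKM in CR livers, against 24.7, 22.7 and 18.9 FPKM in AL livers (log2 fold change 0.75 ± 0.12 SE, adjusted p = 0.0049). Nsa2 rose by 0.52 and Pelp1 fell by 0.62 (adjusted p of 0.010 and 0.012). Among 15 nucleolar core and snoRNP proteins, the 2 called higher were Npm1 (log2 fold change 0.71, adjusted p = 0.017) and Ncl (0.63, adjusted p = 0.0044), both abundant proteins of the nucleolus, of which Npm1 is also on the list of TOP mRNAs, and the median of the list was -0.17. Among 14 chaperones and importers of ribosomal proteins, Naca and the importin Ipo5 (log2 fold change 0.35, adjusted p = 0.031) were called higher and 0 lower (4 and 0 at an unadjusted p under 0.05). Ipo5 kept its call in 1 of the 7 fits, and Npm1 and Pelp1 lost theirs without AL replicate 2 (adjusted p of 0.062 and 0.056).

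Among 29 regulators of ribosomal protein mRNA, 2 were called higher and 0 lower (7 and 4 at an unadjusted p under 0.05, 2 and 1 with limma-voom). Mxi1, a partner of Max that opposes Myc, had 7.21, 7.69, 6.72 and 6.76 FPKM in CR livers, against 3.51, 3.35 and 3.62 FPKM in AL livers (log2 fold change 1.0 ± 0.10 SE, adjusted p = 0.00071). Cnbp, a zinc finger protein known to bind TOP mRNAs, had 104, 99.7, 103 and 95.5 FPKM in CR livers, against 76.2, 71.4 and 78.3 FPKM in AL livers (log2 fold change 0.42, adjusted p = 0.018), and its call was lost without AL replicate 1 or 2 (adjusted p of 0.061 and 0.085). Of 28 genes of ribosome quality control, storage and turnover, 0 were called higher and 3 lower (3 and 4 at an unadjusted p under 0.05, 0 and 4 with limma-voom), namely Zfp706 (log2 fold change -0.66), Gcn1l1 (-0.61), which senses stalled ribosomes, and G3bp1 (-0.51), a protein of stress granules. Zfp706 was called in all 7 fits, Gcn1l1 in 2 and G3bp1 in 1. Of 8 genes that link ribosomal proteins to p53, 0 were called by limma, with 0 higher and 1 lower at an unadjusted p under 0.05 and 0 called by limma-voom.

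Bulk liver holds several cell types, and fewer cells of a type and less RNA per cell cannot be told apart. Beside the marker counts stand the shares of all genes tested, 11.3% called higher and 10.2% lower. Every CR liver lay above every AL liver in 17.6% of all genes and below in 16.8%. Of 6 hepatocyte markers, 2 (Alb and Serpinc1) were called higher in CR and 0 lower, and all were detected in every library. Every CR liver lay above every AL liver in 3 of them and below in 1. The latter was Apoa1 (log2 fold change -0.70, adjusted p = 0.056), and Hnf4a was level (-0.03). Of 5 red blood cell genes, the 4 globin genes were called higher and Alas2, an enzyme of heme synthesis, lower, with summed levels of 251 to 397 FPKM in CR livers and 152 to 198 FPKM in AL livers and no marker at 0. Of 7 endothelial markers, limma called 0 (1 was lower at an unadjusted p under 0.05 and 1 with limma-voom), with sums of 60.04, 53.9, 28.0 and 57.5 FPKM in CR livers and 63.4, 61.1 and 61.4 FPKM in AL livers. Of 9 Kupffer cell markers, 1 was called higher (Marco, log2 fold change 1.87) and 1 lower (C1qa, -0.65), and 2 had a log2 fold change above 0. The sums of the 9 were 227, 298, 112 and 217 FPKM in CR livers and 197, 256 and 304 FPKM in AL livers. CR replicate 3, the liver with the highest level of the members, had the lowest sums of endothelial and Kupffer cell markers. Of 7 markers of dividing cells, 1 reached the level needed for a test and did not pass, with sums of 1.33 to 4.10 FPKM in CR livers and 3.00 to 3.13 FPKM in AL livers. The part of these cells in the levels of the members was not tested.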

How the data were processed

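Liver RNA of 4 CR and 3 AL mice was sequenced, with 1 library per mouse. The authors deposited a table of FPKM values. The processing notes of the submitters list HISAT2 2.0.5, featureCounts 1.5.0-p3, CASAVA 2.19 and the build GRCm38, without roles; the FPKM formula, the strand of the reads and the handling of reads that hit several genes are not given in the sources used here. The libraries had 15641740 to 19900806 reads in genes, recovered as FPKM times gene length divided by the product that a single read gives. That unit was fitted for each library to its smallest products and yields the depth divisor. After the division, 100% of the values were whole within 0.01 reads. Genes that reached 0.5 FPKM in 3 or more libraries were tested two-sided on log2(FPKM + 0.1) in R 4.3.3, using limma 3.58.1 and, for robust variances around a trend, statmod 1.5.0. The study names a count test; since the table holds FPKM, a test on the recovered reads (limma-voom) was run only as an alternative. How the deposited gene lengths were made is not stated. Their median over the members was 1739 bases, against 886 for the principal transcript of GENCODE M21. For Rpl17 the deposited length of 775 bases was shorter than that transcript, at 1326, so it is not a union of these exons there.

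Members and lists were chosen with earlier results of these data known. Members were named if they were among the 8 lowest adjusted p values in each direction, the 6 highest in mean FPKM, the 4 nearest to 0, the 4 highest or lowest fold changes, a paralogue pair, a stalk protein, or Rpsa, Rps6, Rpl5, Rpl11 or Rps27a. From each list, the 3 lowest adjusted p values and the 2 highest in mean FPKM were eligible, of which mainly the called ones are reported, chosen after their values were seen. Rps4x, Rps16, Rps24, Rpl26, Rpl27a and Rpl37 fall outside this rule. Same-numbered AL and CR mice were not from a shared animal or batch in the labels, and their deviations correlated at 0.03, -0.04 and -0.06. Alternatives covered the pseudocount, filter, scaling, length and GC trends, variance model, limma-voom on recovered reads, replicate block, near copies and leaving out libraries. Some members are counted in every total and not reported here by name.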

Additional observations from a re-analysis of the deposited data

Results flagged for a closer look

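Among the 4 CR livers, 2 of the reported genes had a value far from the other 3, out of 72 genes looked at, where chance gives about 1 in 20 groups. Rpl36a had 68.3 FPKM in CR replicate 2, with a gap to the next CR liver of 0.83 of the range of the group. Rps27 had 146 FPKM in CR replicate 2, with a gap of 0.96 of the range. In the same library Rps27rt, the copy of Rps27, was the lowest of the CR livers.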

How the results depend on the processing

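The median fold change of the members stayed above 0 in every alternative, and their count of higher calls stayed between 10 and 22 in those that kept the 7 libraries and had no block. Scaled to reads in genes in place of the depth divisor, 12 members were called higher and 2 lower, and 2674 genes in all. The median of the members was then 0.23. Numbers shared between CR and AL mice do not pair them; with the replicate block, 2 members were called higher and 0 lower, and 990 genes in all against 2724, and Rpl28 had -0.044. With no filter on low values 1 member was called lower. Leaving out 1 library at a time gave 2 to 14 members called higher, 0 to 2 lower and 1209 to 2663 genes in all, and fold changes from -0.052 to 0.125 for Rpl15, -0.149 to 0.169 for Rpl28, -0.310 to 0.059 for Rplp2, -0.140 to 0.073 for Rps13 and -0.307 to 0.320 for Rps27a. Without CR replicates 3 and 4, 8 were called higher, 4 lower and 1774 genes in all, and Rpl11 (-0.207), Rpl15 (-0.143), Rpl28 (-0.360), Rpl36 (-0.037) and Rps27l (-0.002) changed sign. Without CR replicates 1 and 2, 0 were called lower and 1269 genes in all, and Rpl22l1 (0.189), Rplp2 (0.312), Rps13 (0.201) and Rps27a (0.141) changed sign. With the GC trend removed Rpl15 (-0.044) and Rps27l (-0.010) changed sign, and with near copies added Rps10 had 0.482. The cause of these changes was not tested.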
